A study of Zea mays with 48 samples.

Results

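The most abundant transcripts of untreated maize roots were taken as the 100 genes with the highest mean level over the 3 libraries made at 0 h, out of 23753 genes in the deposited count table. The level is given as CPM, a gene's reads divided by all reads of the library, times 1000000. The count values of the 0 h libraries therefore chose these members, and every difference from 0 h below is a description with no test. The members were then followed through 6 times of tunicamycin treatment and a 48 h mock.

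Tunicamycin stops the first step by which sugar chains are made for N-linked glycoproteins, so that unfolded proteins build up in the endoplasmic reticulum (ER). Cells answer with the unfolded protein response, in which sensors in the ER membrane, IRE1 among them, raise chaperones and slow the load of new secreted proteins. In plant roots the most abundant messenger RNAs usually come from genes for translation, the cytoskeleton, carbon metabolism, cell walls and water channels. None of these roles can be placed on the members here, because the reference table of 49888 genes matched 0 of 23753 identifiers, so that no name, chromosome, position or sequence is given and root identity was not checked by markers.

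The seedlings were of the maize inbred line B73 and 7 days old per the labels, and whole roots were harvested. The 8 groups had 3 libraries each, labelled I, II and III, and were 0 h, tunicamycin at 5 µg/ml for 3, 6, 12, 24, 36 and 48 h and a 48 h mock. The mock is the age-matched control of the 48 h treatment alone, so differences between other times hold treatment and elapsed time together. In whole roots, fewer cells of a type and less RNA per cell cannot be told apart. Libraries held 7701856 to 38577551 reads, with a median of 24966395. The fewest reads of any member in any library were 787 and the most 168825, so counting error was small beside the spread between libraries.

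Some labels conflict and some libraries stand apart. Sample titles and library names disagree on the time of most lanes. Among these are some 0 h lanes and every analysed lane named for tunicamycin. They also disagree on treatment, since some mock lanes are titled as treated and some 12 h tunicamycin lanes as mock. Samples were grouped by library name, as in the columns of the count table, so every group rests on those names and not on the titles. The design text calls the libraries of a group biological replicates and the lanes of a library technical ones. Over the members, libraries I and II were the closest pair in all 8 groups, with a median absolute log2 ratio of 0.0386 to 0.176 outside 24 h and 0.258 at 24 h. Library III differed from I or II by 0.164 to 0.494. The 2 lanes of a library differed by 0.0829 to 0.362 outside 24 h, and in 6 of 8 groups libraries I and II lay closer together than any pair of lanes did. Over all genes the chi-square per degree of freedom between I and II was 2.17 to 43.1, above the 1 of counting noise alone. The lanes of 1 library lay at 5.12 to 26.6 outside 24 h and at 43.1 and 80.6 at 24 h, and in 7 of 8 groups I and II had the lower value. These values do not show whether I and II are separate samples, and they were counted as separate because the design text says so. With I and II summed into 1 library per group, edgeR called 0 members in all 5 comparisons below. That fit called at most 0.0505% of all genes in any of them. The lanes of library III at 24 h differed by 0.669, and the members held 11.7% of the reads of lane 6 and 8.87% of those of lane 7. Lane 7 of library II at 24 h was not analysed here.

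**Figure D1:**
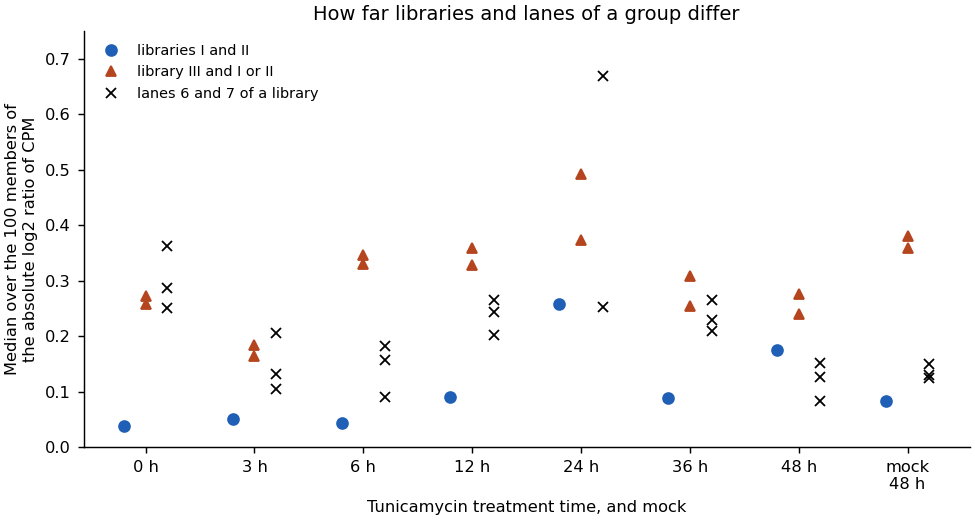
Median over the 100 members of the absolute log2 ratio of CPM (vertical axis) between libraries I and II, between III and I or II, and between lanes 6 and 7 of a library, in each group. The I and II points lie between 0.0386 and 0.258, below both points of library III in every group.

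The members formed a long shoulder, not a few dominating genes. At 0 h they held 12.5% ± 0.950 of all reads (SD, n = 3), of which the first 10 held 3.06% ± 0.410. The first member, Zm00001d023994, had 4478, 4586 and 2916 CPM in the 0 h libraries, and the median member 952 CPM. The lower bound falls on a smooth slope. Just inside it, Zm00001d039865 at rank 99 averaged 668 ± 27.7 CPM and Zm00001d020401 at rank 100 averaged 667 ± 181 CPM. Just outside it, Zm00001d026458 averaged 666 ± 100.9 CPM and Zm00001d022134 averaged 663 ± 52.6 CPM. The last gene inside and the first outside thus lay much closer than their SD.

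The rule used CPM, which does not divide reads by gene length, although a longer transcript can collect more reads. The deposited RPKM, which divides a gene's reads by its length and by library size, reordered the members. Of the 100, 45 were also among the 100 highest by RPKM at 0 h, their median RPKM rank was 117.5 and their worst 831. Their RPKM at 0 h ran from 79.6 over a median of 307 to 5058. The median length was 3374.5 bp for the members and 3513 bp for all genes, and 9 members were under 1000 bp, against 11.5% of all genes. Over all genes these lengths ran from 132 to 128402 bp. Whether introns count toward them is not stated, so the RPKM ranks hold for these lengths alone.

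Short members led on the RPKM scale. Zm00001d031168, 613 bp long, was the fifth by CPM at 0 h and the first by RPKM, with 5058 ± 345. Zm00001d048611, 773 bp long, was the fourth by CPM and the second by RPKM, with 4113 ± 211. Zm00001d034356, 675 bp long, was the eighth by CPM and the third by RPKM, with 3598 ± 76.4. Zm00001d031909, 6324 bp long and the third by CPM, had 548 ± 103 RPKM and rank 49.

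The share of reads held by the members was lower in every later group than at 0 h, a direction that the choice at 0 h favours. Under tunicamycin it averaged 11.9% ± 0.846 (3 h), 10.1% ± 0.347 (6 h), 11.6% ± 0.786 (12 h), 11.1% ± 1.86 (24 h), 10.9% ± 0.349 (36 h) and 10.4% ± 0.230 (48 h), against 11.03% ± 0.771 in the mock (SD, n = 3 each). At 6 h the libraries held 9.92%, 9.97% and 10.5%, all below the 12.3%, 12.3% and 10.9% of 3 h. At 48 h the tunicamycin libraries held 10.6%, 10.1% and 10.5%, which overlap the 11.3%, 11.7% and 10.2% of the mock. The first 10 members held 2.90% (3 h), 2.08% (6 h), 2.79% (12 h), 2.54% (24 h), 2.52% (36 h) and 2.32% (48 h), against 2.51% in the mock. The 100 highest genes of each library itself averaged 12.6% (0 h), 12.9% (3 h), 11.1% (6 h), 12.7% (12 h), 12.8% (24 h), 12.0% (36 h) and 11.6% (48 h), against 11.9% in the mock, so the low point at 6 h was also there when the list was chosen anew in every library.

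**Figure D2:**
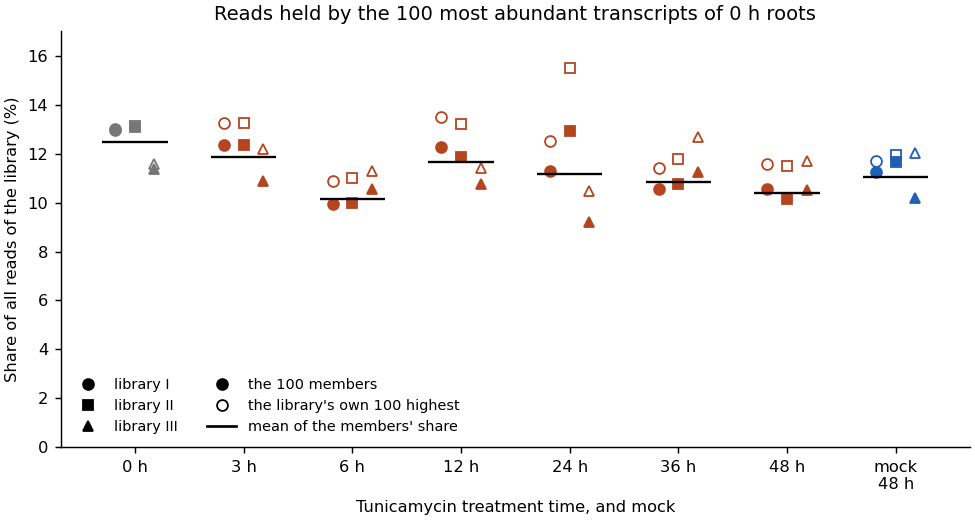
Share of all reads (%, vertical axis) held by the 100 members (filled) and by each library's own 100 highest genes (open) in every library, with lines at the mean of the members' share. The members' mean runs from 10.1% at 6 h to 12.5% at 0 h, and at 48 h the tunicamycin and mock libraries overlap.

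Most members kept their place. By group mean, the members still among the 100 highest under tunicamycin numbered 74 (3 h), 71 (6 h), 89 (12 h), 74 (24 h), 78 (36 h) and 76 (48 h), against 82 in the mock. In all 8 groups, 56 members were in that range, and all of the first 10 were among them. Across the 8 groups 161 different genes reached it. The 24 genes that took the places of members at 48 h had a median rank of 152 at 0 h and a lowest of 1132, and the 18 that did so in the mock had a median of 128.5 and a lowest of 1188. The lists share 13 genes, which is 54.2% of the 24 and 72.2% of the 18. Members beyond rank 200 by group mean numbered 11 at 48 h tunicamycin and 4 in the mock. Per library, members among its own 100 highest numbered 78, 72 and 69 at 48 h tunicamycin and 80, 85 and 71 in the mock. These ranges overlap, and at 0 h the libraries held 94, 95 and 87.

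Relative to 0 h the middle member lay lower at every time. The median log2 fold change of the members under tunicamycin was -0.18 (3 h), -0.35 (6 h), -0.13 (12 h), -0.21 (24 h), -0.25 (36 h) and -0.29 (48 h), against -0.20 in the mock, while that of all genes lay between 0.01 and 0.05. The members with the most extreme differences from 0 h were picked after their values were seen. Zm00001d033931, rank 85, had 583, 549 and 1031 CPM at 0 h, 3804, 3811 and 4192 CPM at 3 h, 1609, 1652 and 2933 CPM at 48 h and 1434, 1391 and 2794 CPM in the mock. It was thus above 0 h both with tunicamycin and in the mock. Zm00001d051420, rank 42, had 832, 795 and 1479 CPM at 0 h, 206, 215 and 312 CPM at 3 h, 125, 145 and 204 CPM at 48 h and 170, 190.0 and 260 CPM in the mock, and was likewise far below 0 h in both. Between 48 h tunicamycin and mock the log2 fold change was 0.13 (SE 0.51) for Zm00001d033931 and -0.40 (SE 0.37) for Zm00001d051420, and edgeR's quasi-likelihood test called neither, with Benjamini-Hochberg adjusted p = 0.968 and 0.832.

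**Figure D3:**
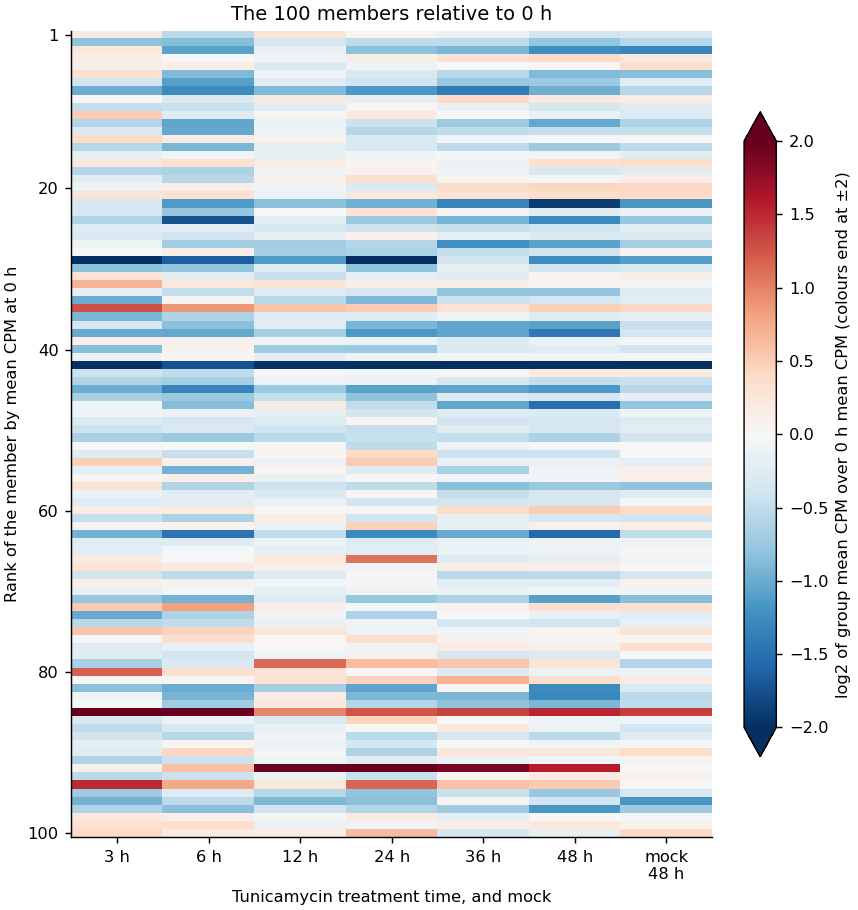
Log2 ratio of each group's mean CPM to the 0 h mean (colour, ending at ±2) for the 100 members, by rank at 0 h down the page and by treatment time across it, with the mock last. The rows at ranks 42 and 85 stay blue (rank 42) and red (rank 85) in all 7 columns, and the row at rank 92 is red with tunicamycin from 12 h on and pale in the mock.

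Tests compared only groups other than 0 h, although the 0 h libraries entered the shared estimate of the spread and the scaling. A gene was called at an adjusted p below 0.05 in edgeR's quasi-likelihood test, fitted to all genes and 8 groups with Benjamini-Hochberg adjustment over 23753 genes, and fold changes are on the log2 scale. At 48 h, tunicamycin against mock, 2 of 100 members were called, 1 higher and 1 lower, beside 0.472% of all genes (0.337% higher and 0.135% lower). At an unadjusted p below 0.05 there were 11 members, or 11%, against 8.76% of all genes. The median log2 fold change of the members was -0.11, with 74 negative and 26 positive, and that of all genes 0.00. Just 3 members differed by 2-fold or more, against 4.04% of all genes. The count called was 1 without any 1 library of the mock or without I or II of tunicamycin, and 3 without III of tunicamycin. It was also 1 when just the libraries of these 2 groups were fitted, beside 0.393% of all genes.

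Zm00001d049099, rank 92 at 0 h and 4694 bp long, was higher under tunicamycin. It had 2299, 2276 and 1709 CPM in the 48 h tunicamycin libraries, against 604, 651 and 874 CPM in the mock. The groups did not overlap, and the 3 mock libraries lay near the 729, 731 and 662 CPM of 0 h. The log2 fold change was 1.55 (SE 0.24) and the edgeR adjusted p 0.00249. Over time it had 713, 696 and 834 CPM at 3 h, 1059, 1073 and 1055 CPM at 6 h, 3230, 3174 and 1967 CPM at 12 h, 2886, 3687 and 2096 CPM at 24 h, and 2457, 2498 and 2992 CPM at 36 h. The step from 6 to 12 h was the large one, at 1.44 (SE 0.24) on the log2 scale with an edgeR adjusted p of 0.00277. Its ratio of highest to lowest treated group mean, 3.87, was the largest of all members. The call at 48 h held without each library of the 2 groups in turn, the highest edgeR adjusted p being 0.0355, but not with libraries I and II summed, where it was 0.703.

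Zm00001d049179, rank 38 at 0 h and 1521 bp long, was lower under tunicamycin. It had 450, 327 and 489 CPM in the 48 h tunicamycin libraries, against 912, 882 and 852 CPM in the mock, with no overlap. The log2 fold change was -1.07 (SE 0.22) and the edgeR adjusted p 0.0337. Its level was already 583, 590 and 513 CPM at 3 h, against 988, 1045 and 1369 CPM at 0 h, and the treated group means stayed between 422 and 714 CPM, with an edgeR adjusted p of 0.140 over the 6 times. This call is the less firm one. It was lost without any 1 library of the mock (edgeR adjusted p 0.155, 0.148 and 0.0535 without I, II and III) and without library I or II of tunicamycin (0.148 and 0.261), and held without library III of tunicamycin (0.0315), while the log2 fold change stayed between -1.19 and -0.92. The call was also lost when just the libraries of the 2 groups were fitted (edgeR adjusted p 0.0656) and with libraries I and II summed (0.999982, log2 fold change -1.003). The third member past 2-fold, Zm00001d014467, picked after its values were seen, had 302, 219 and 322 CPM at 48 h tunicamycin, against 679, 689.5 and 368 CPM in the mock, with a log2 fold change of -1.06 (SE 0.32) and an edgeR adjusted p of 0.227.

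**Figure D4:**
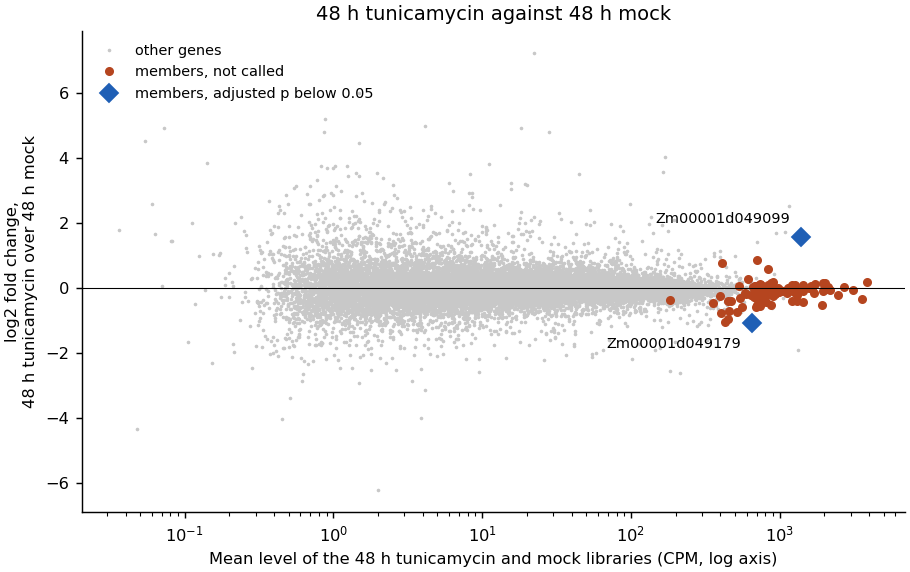
Log2 fold change of 48 h tunicamycin over 48 h mock (vertical axis) against the mean CPM of the 6 libraries (log axis) for all genes (grey) and the members, with the 2 called members as diamonds. Zm00001d049099 stands at 1.55 and Zm00001d049179 at -1.07, and the other members lie between.

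Of the first 10 members, edgeR called 0 at 48 h tunicamycin against mock, 0 had an unadjusted p below 0.05 and DESeq2 called 0. Zm00001d023994 had 2766, 3427 and 3026 CPM at 48 h tunicamycin, against 2960, 3441 and 3150 CPM in the mock, nearly the same range. Zm00001d048611 had 4092, 4373 and 3915 CPM with tunicamycin, against 3851, 3957 and 3069 CPM in the mock. Zm00001d012675 had 1894, 1372 and 1532 CPM with tunicamycin, against 2865, 2501 and 1473 CPM in the mock, and its log2 fold change of -0.53 (SE 0.28) was the largest in size among the 10. Zm00001d034356 had 1242, 1245 and 1200 CPM with tunicamycin, against 1636, 1857 and 1447 CPM in the mock, without overlap, and a log2 fold change of -0.43 (SE 0.28) with an edgeR adjusted p of 0.720. For the remaining members of the 10, Zm00001d049239, Zm00001d031909, Zm00001d031168, Zm00001d004689, Zm00001d017274 and Zm00001d031128, the log2 fold change lay between -0.34 and 0.08.

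A pair of the first 10 set apart library III of the mock. Zm00001d031909 had 1290, 1407 and 1757 CPM at 48 h tunicamycin, against 1807, 2060 and 308 CPM in the mock. Zm00001d004689 had 1979, 1893 and 1022 CPM at 48 h tunicamycin, against 2302, 2463 and 228 CPM in the mock. Both were several times lower in library III than in the other mock libraries. Without that library the log2 fold change of 48 h tunicamycin over mock was -0.40 for Zm00001d031909 and -0.57 for Zm00001d004689, against 0.08 and -0.05 with it, and edgeR called neither (adjusted p = 0.705 and 0.648). Zm00001d004689 was lower in III than in the mean of I and II in all 8 groups and Zm00001d031909 in 7 of them. Over the 24 libraries their log2 CPM went together, with Pearson's r = 0.941 and Spearman's rho = 0.890, given as a description of a pair picked after its values were seen, over libraries that share groups and numbers. Of all members, 9 were lower in III in all 8 groups and 0 were higher in all 8.

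The later steps of the time course moved members as a minority. From 3 to 6 h edgeR called 0 members, beside 0.0547% of all genes (0.0126% higher and 0.0421% lower), and DESeq2 called 0, beside 0.926%. An unadjusted edgeR p below 0.05 was found in 18 members, against 12.2% of all genes. The median log2 fold change of 6 h against 3 h was -0.15, with 72 members negative. From 6 to 12 h 13 members were called, 12 higher and 1 lower, beside 9.27% of all genes (6.30% higher and 2.97% lower). The 12 were higher at 12 h by 0.74 to 1.55 on the log2 scale. The member that fell, Zm00001d033925, rank 72 and picked after its values were seen, had 838, 786 and 912 CPM at 12 h, against 1451, 1443 and 1231 CPM at 6 h, a log2 fold change of -0.67 (SE 0.20) with an edgeR adjusted p of 0.0425. Its call was lost without I, II or III of 6 h (edgeR adjusted p 0.114, 0.117 and 0.0530) and without I or II of 12 h (0.132 and 0.134), and held without III of 12 h (0.0486). The median member was 0.24 higher on the log2 scale, against 0.00 for all genes. The count of 13 depended on single libraries, and so did that of all genes. It was 2 when library I or II of either time was left out, beside 1.71% to 2.40% of all genes, 21 without library III of 12 h, beside 16.1%, and 12 without library III of 6 h, beside 7.38%. When just the libraries of the 2 groups were fitted it was 8, beside 6.01%.

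From 12 to 48 h edgeR called 6 members, all lower at 48 h, beside 3.88% of all genes (1.06% higher and 2.82% lower), and the fit with library number as a block called 10, beside 8.75%. The log2 fold changes of the 6 lay between -1.75 and -0.88. The largest was that of Zm00001d042541, rank 47, with 375, 311 and 349 CPM at 48 h, against 1357, 1425 and 569 CPM at 12 h, a log2 fold change of -1.75 (SE 0.41) and an edgeR adjusted p of 0.0250. Its call held in 1 of 6 fits that left out a library, that without III of 12 h, and the adjusted p reached 0.145 in the others. The count of members was 0 when I or II of 12 h or II of 48 h was left out, beside 0.194%, 0.198% and 0.358% of all genes. It was 1 without library I or III of 48 h, beside 1.13% and 1.01%, and 12 without library III of 12 h, of which 10 were lower and 2 higher, beside 13.3%. When just the libraries of the 2 groups were fitted it was 0, beside 0.131% of all genes.

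Over the 6 treatment times together, edgeR's test of any difference called 25 members, close to the 21.9% of all genes. At an unadjusted p below 0.05 there were 45 members, against 40.9% of all genes. The 25 differed in shape, with the highest mean at 12 h in 9, at 24 h in 6, and at the other times in 10, and their median ratio of highest to lowest treated mean was 1.87. Among the first 10 members, 0 were called by edgeR, 4 had an unadjusted p below 0.05 and DESeq2 called 4, beside 37.1% of all genes. The count of 25 fell to 10 without library I of 12 h and to 12 without II of 12 h or II of 3 h, to 13 without I of 3 h or I of 6 h, to 15 without II of 6 h or II of 36 h, to 16 without II of 24 h or I of 36 h, and was 47 without III of 24 h. The share of all genes called moved as well, to between 14.4% and 16.5% in the fits just listed with a lower count and to 34.2% without III of 24 h. The remaining fits that left out a library called 18 to 33 members, beside 17.8% to 29.8% of all genes.

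The size of change over time was near that of all genes. The ratio of highest to lowest treated mean ran from 1.12 over a median of 1.62 to 3.87 in the members, with a median of 1.56 over all genes. It was 2 or more in 25 members, against 23.9% of all genes, and 3 or more in 4 members, against 8.33%. The 4 were Zm00001d049099, Zm00001d024027, Zm00001d019283 and Zm00001d042541, of which the last 2 were picked after their values were seen. Of the 25 members past 2, edgeR called 12 and did not call 13. The spread between libraries of a group, as edgeR's biological coefficient of variation per gene, had a median of 0.200 in the members and 0.189 in all genes, and ran from 0.106 to 0.513 in the members. A member's highest treated mean came at 12 h most often, in 24 members against 15.3% of all genes, and least often at 48 h, in 7 members against 12.0%. At 3 h it came in 20 members against 10.6% of all genes. The counts were 16 against 21.2% at 6 h, 20 against 23.7% at 24 h and 13 against 17.2% at 36 h.

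Zm00001d024027, rank 29 and 1137 bp long, had the second largest ratio, 3.72, with its lowest treated means at 3 and 24 h. It had 1365, 1442 and 1115 CPM at 0 h, 214, 259 and 349 CPM at 3 h, 381, 367 and 510.0 CPM at 6 h, 332, 431 and 1033 CPM at 12 h, 343, 235 and 340.1 CPM at 24 h, 789, 1338 and 925 CPM at 36 h, and 520, 584 and 561 CPM at 48 h, against 552, 777 and 507 CPM in the mock. The high value at 36 h was shared by the 3 libraries, and the high one at 12 h was in library III alone. The edgeR adjusted p over the 6 times was 0.00295. At 48 h tunicamycin and mock overlapped, with a log2 fold change of -0.16 (SE 0.30).

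Zm00001d019283, rank 79 and 3978 bp long, followed a course with its top at 12 h. Its libraries had 438, 442 and 565 CPM at 3 h, 614, 639 and 594 CPM at 6 h, 1832, 1978 and 1160 CPM at 12 h, and 985, 1106 and 619 CPM at 48 h, against 494, 547 and 466 CPM in the mock. The edgeR adjusted p was 0.000636 over the 6 times, 0.00223 for 12 h against 6 h (log2 fold change 1.48) and 0.175 for 48 h tunicamycin against mock (log2 fold change 0.83, SE 0.23).

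The steadiest members were Zm00001d035156 and Zm00001d036904, each with a ratio of 1.12. Zm00001d035156, rank 16, had treated group means of 1659 to 1856 CPM, against 1649 ± 79.3 CPM in the mock (SD, n = 3). Zm00001d036904, rank 70, had treated group means of 683 to 764 CPM, against 756 ± 4.43 CPM in the mock. Their edgeR adjusted p over the 6 times was 0.939 and 0.942, and at 48 h tunicamycin against mock their log2 fold changes were 0.12 (SE 0.14) and -0.04 (SE 0.14).

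**Figure D5:**
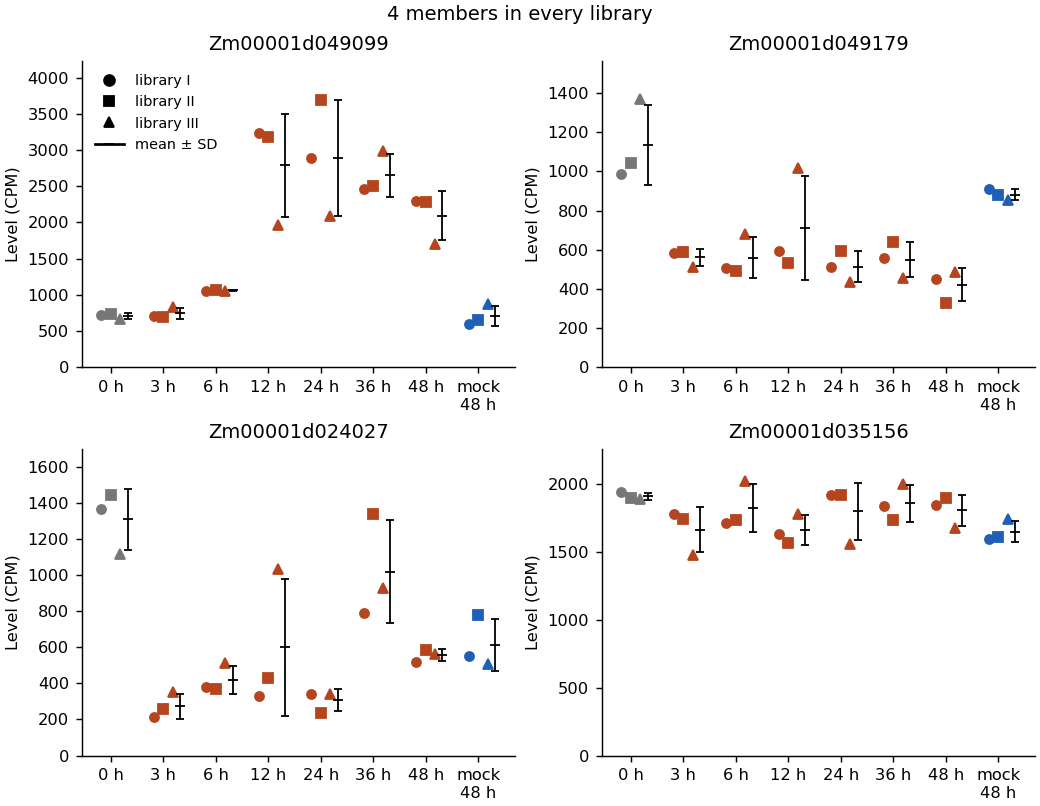
CPM of 4 members (vertical axes from 0) in every library by treatment time and in the mock, with mean ± SD of 3 libraries. Zm00001d049099 is at 1709 CPM or more in all tunicamycin libraries from 12 h on and at 604 to 874 CPM in the mock. Zm00001d049179 is lower at 48 h tunicamycin than in the mock. Zm00001d024027 has its lowest means at 3 and 24 h, and Zm00001d035156 stays near its mock level.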

How the data were processed

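Root RNA of 24 libraries was measured by sequencing, and 47 of the 48 labelled lane samples were used. Per the submitters' processing notes the authors used STAR, featureCounts and edgeR, with no version, and the sources used here do not give the genome build, the strand setting or the handling of reads shared by near-identical gene copies, so counts of members with close copies are uncertain. The deposited count table holds raw read counts per gene and library. The deposited RPKM table holds values per lane, from which lane reads and gene lengths were solved: 100% of lane values were whole within 0.001 reads, 100% of lengths within 0.01 bp, and lane sums equalled the counts with a largest difference of 0.

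Levels are CPM on column sums. The counts were tested with edgeR 4.0.16 (R 4.3.3), TMM scaling (factors 0.892 to 1.07) and its quasi-likelihood test in 1 model of 8 groups. The low-count filter removed 0 genes, and the table lists no gene under 152 reads over all libraries. Calls are genes whose p, adjusted after Benjamini-Hochberg over all genes, was below 0.05, and a standard error is the fold change over the square root of F. The steps were tested on simulated data. DESeq2 1.42.0 and other scalings, filters, members, lanes and libraries were alternatives. Pairing by library number was judged from these data and not from the labels. The rule was that the correlations of same-numbered deviations from group means all exceed 0.1. They were 0.190 to 0.415 for 48 h tunicamycin and mock, and 0.140 to 0.315 for 48 and 12 h. The main model holds no library number, so its tests leave this pairing out, and a block for library number was an alternative. With the block the edgeR adjusted p at 48 h against mock was 0.00326 for Zm00001d049099 and 0.0354 for Zm00001d049179.

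The members, lists and tests were chosen with earlier results of these data known. Identifiers printed are the first 10 members, the last rank inside the list and the first outside it, the members called at 48 h against mock without overlap of libraries, and the 2 members each with the largest and smallest ratio of treated means, besides ranks 99 and 102, shown with the bound, and those said to be picked after their values were seen. Gene lists by function could not be applied without names.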

Additional observations from a re-analysis of the deposited data

How the results depend on the processing

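The main counts of members called were 2, 0, 13, 6 and 25. Without 1 library each they were 1 to 3 for 48 h tunicamycin against mock and 0 to 0 for 6 against 3 h. They were 2 to 21 for 12 against 6 h and 0 to 12 for 48 against 12 h. Over the 6 times they were 10 to 47. In that order these fits called 0.156% to 0.808%, 0.00421% to 0.135%, 1.71% to 16.1%, 0.194% to 13.3% and 14.4% to 34.2% of all genes. Below, counts that an alternative moved by over 1.5 times stand beside the share of all genes called in the same fit. For 48 h against mock the count was 0 with libraries I and II summed (0.0126%) and 1 for members by RPKM (0.472%). It was 1 when just the groups compared were fitted (0.393%). For 6 against 3 h it was 3 when just the groups compared were fitted (1.60%). For 12 against 6 h the count was 24 without the 24 h libraries in the model, an alternative added after seeing the data, 25 with DESeq2, 24 on lane 6 and 4 on lane 7 alone, 0 with I and II summed, 8 with just the groups compared, 21 with the replicate block and 8% of the 50 highest members. The first 3 stood beside 15.2%, 15.5% and 17.8% of all genes, and lane 7 beside 2.69%. The next 3 stood beside 0%, 6.01% and 16.8%, and the 50 highest beside 9.27%. For 48 against 12 h the count was 10, 10, 11, 0, 0, 0 and 10 under the first 7 of these alternatives. It stood beside 8.07%, 8.77%, 7.52%, 0.198%, 0%, 0.131% and 8.75% of all genes. Over the 6 times it was 46 with DESeq2, beside 37.1% of all genes. On lane 6 alone it was 62, beside 57.6%, and on lane 7 alone 9, beside 3.74%. With I and II summed it was 0, beside 0.0505%, and for members by RPKM 40, beside 21.9%. The share of reads at 48 h tunicamycin was 7.15% for members by RPKM, 6.66% for 50 and 15.4% for 200 members, against 7.90%, 7.25% and 16.1% in the mock, and without 1 library each 10.3% to 10.5% and 10.7% to 11.5%. Members still among the highest at 48 h tunicamycin were 68% by RPKM and 70% of 50, against 71% and 72% in the mock, and 74 to 76 and 79 to 81 without 1 library each. Where the list itself was changed, other genes were counted; for every other alternative the cause was not tested. Signs were compared for 15 named members at 48 h against mock. The 2 called members, Zm00001d049099 and Zm00001d049179, kept theirs in every alternative. Of the 15, 6 had log2 fold changes of both signs, and 0 of these were called in any alternative. Among them were Zm00001d031909 (-0.40 to 0.48) and Zm00001d004689 (-0.57 to 0.36). Library numbers did not meet the pairing rule for 6 against 3 h (correlations 0.0728 to 0.0975, 6 of 6 samples closest to their own number) and 12 against 6 h (0.0540 to 0.116, 5 of 6). The block changed no other call count by over 1.5 times. It gave 2 for 48 h against mock, 0 for 6 against 3 h and 36 over the 6 times. These counts stood beside 0.615%, 0.779% and 31.7% of all genes. The members had at least 787 reads in each library, and whether depth moved these counts was not tested.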
